A study of Mus musculus with 5 samples.

Results

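The mitochondrial ribosomal protein genes are the nuclear genes for the protein subunits of the ribosome inside mitochondria, and in mouse most of them carry symbols that begin with Mrpl, for the large subunit, or Mrps, for the small one. They were measured in 5 RNA-seq libraries of primary brain microglia, which are tissue macrophages. The 2 libraries labelled knockout came from mice with the tamoxifen-inducible recombinase allele Cx3cr1CreERT2, which is active in microglia and other Cx3cr1-expressing macrophages, together with Ythdf2fl/fl, a floxed Ythdf2 gene. The 3 controls came from Ythdf2fl/fl mice without the recombinase, so every animal carried the floxed alleles. Ythdf2 is a reader protein of N6-methyladenosine that promotes decay of the mRNAs it binds, and the stated aim was to find processes altered in microglia by its loss. The labels do not give age, tamoxifen treatment, pooling of animals or whether replicates were separate cultures, so the p-values reflect the spread among these libraries and no more. Genes were taken where the symbol has one of these beginnings followed by a digit, is not marked as a pseudogene, and has at least 50 reads over all libraries, which gave 75 of the 21983 genes in the count table.

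Of these genes, 48 encode proteins named for the large subunit and 27 proteins named for the small subunit, and all 75 passed the filter on low counts that left 12543 genes for testing. A further 3 rows match the symbol, Mrpl53, Mrps10 and Mrps23, and each is listed at 0 in every library. Exon bases of Mrpl53 lie to 88.0% inside another annotated gene on the same strand, Gm42688, while Mrps10 and Mrps23 overlap no other exon in the annotation. Mrps10 does match a processed pseudogene, AC154457.3, over 573 bases at 97.91% identity, and whether this bears on its listed 0 was not tested. The microglial gene Trem2 and the endothelial gene Cldn5 are also listed at 0 in every library, so a listed 0 in this table does not show absence of the mRNA. The member with the fewest reads was Mrps36 with 111 over the 5 libraries, the one with the most had 4110, and the median was 1619. The members sit on 17 chromosomes, 10 of them on chromosome 11 and none on the X.

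The mitochondrial ribosome translates only the few mRNAs encoded in mitochondrial DNA, all of which specify subunits of the respiratory chain and of ATP synthase. Its RNAs are transcribed inside the organelle, whereas its proteins are made in the cytosol and imported. Relative to the bacterial ribosome from which it descends it has less RNA and more protein, so some members have bacterial counterparts and others exist only in mitochondria. In the nucleus, genes of this kind are textbook targets of nuclear respiratory factor 1 (NRF1), of ETS factors such as the GA-binding protein, and of YY1.

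Before the results, the libraries have to be described, because they differed within groups. Library totals were 15743468 and 19577217 reads in libraries labelled knockout, against 15565624, 15744558 and 13947500 reads in the controls. Ythdf2 went against its label, with 103.5 and 126.8 CPM (read counts scaled to a common library size with TMM) in libraries labelled knockout and 57.0, 69.2 and 68.8 CPM in controls, a log2 fold change of 0.83 with an edgeR adjusted p of 0.431, and gene-level counts cannot show whether the floxed part of the transcript was lost. Markers fixed for microglia summed to 4008 and 6729 CPM in libraries labelled knockout, against 7621, 7968 and 8021 CPM in controls, with 1 of 10, Trem2, at 0. Oligodendrocyte markers summed to 12265 and 4543 CPM, against 10506, 9447 and 1251 CPM, and all 6 were detected. Choroid plexus and ependyma markers summed to 169 and 225 CPM, against 30.7, 11.9 and 29.6 CPM, and cycling-cell markers to 1490 and 417 CPM, against 363, 372 and 715 CPM. The summed markers ranged over 32.1 to 56.9 CPM against 17.4 to 69.3 CPM for monocytes, 35.1 to 147 against 13.5 to 63.6 for neurons, 93.3 to 130 against 42.0 to 128 for endothelium, with 1 of 5 markers at 0, 21.3 to 22.1 against 21.2 to 45.8 for astrocytes, and 11.1 to 26.5 against 33.5 to 108 for mural cells and fibroblasts. In RNA pooled from many cells, fewer cells of a type and less RNA per cell cannot be told apart.

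Promoter sequences are shown first, as a description, and whether they bear on changes from library to library was not tested. A promoter from RefSeq (GRCm38.p6, 250 bases before to 50 after the annotated start) was found for 66 of the 75 members. The following stretches run from 150 bases before the start to 30 after it, and capitals mark matches on either strand to the NRF1 motif GCGCA followed by any base and GCGC, the ETS motif CCGGAAG or the YY1 motif AANATGGCG. Mrpl52 (chr14:54426759-54426938, plus strand) was the member with the highest level per length, and Mrps21 (chr3:95871485-95871664, minus strand) had one of the widest ranges between libraries. Mrpl58 (chr11:115403602-115403781, plus strand) had the narrowest range, Mrpl45 (chr11:97315566-97315745, plus strand) had the most NRF1 matches among those printed, and Mrps11 (chr7:78782981-78783160, plus strand) lies head to head with another member, Mrpl46.
Mrpl52: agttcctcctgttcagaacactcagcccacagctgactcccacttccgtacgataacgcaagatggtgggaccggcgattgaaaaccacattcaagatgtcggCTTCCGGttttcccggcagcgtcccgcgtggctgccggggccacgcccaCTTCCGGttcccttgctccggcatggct
Mrps21: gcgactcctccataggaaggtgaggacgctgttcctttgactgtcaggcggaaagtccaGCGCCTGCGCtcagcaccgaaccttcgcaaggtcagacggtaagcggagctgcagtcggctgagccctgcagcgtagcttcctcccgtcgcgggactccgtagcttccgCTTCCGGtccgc
Mrpl58: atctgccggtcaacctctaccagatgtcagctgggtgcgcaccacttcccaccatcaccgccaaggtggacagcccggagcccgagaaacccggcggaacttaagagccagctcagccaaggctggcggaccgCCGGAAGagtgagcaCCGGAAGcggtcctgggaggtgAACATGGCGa
Mrpl45: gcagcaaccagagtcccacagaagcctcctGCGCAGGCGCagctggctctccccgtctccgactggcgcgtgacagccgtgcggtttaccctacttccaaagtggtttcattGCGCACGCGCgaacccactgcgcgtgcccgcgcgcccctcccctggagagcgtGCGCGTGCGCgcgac
Mrps11: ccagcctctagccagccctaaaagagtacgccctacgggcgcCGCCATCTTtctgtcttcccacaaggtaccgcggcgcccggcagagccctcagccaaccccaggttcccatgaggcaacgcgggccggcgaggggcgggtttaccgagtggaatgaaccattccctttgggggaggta

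Counted from the annotated start as base 1, the ETS matches of Mrpl52 begin at bases -47 and 3, and those of Mrpl58 at -17 and -2 with a YY1 match at 21. The NRF1 matches of Mrpl45 begin at -120, -38 and 16, and Mrps21 has an NRF1 match at -91 and an ETS match at 19. The NRF1 motif was found in the promoters of 13 of 66 members (19.7%), against 5.19% of the 27025 genes with a promoter in the table and 11.5% of the 9872 such genes tested here. The ETS motif was found in 24 members (36.4%), against 9.93% of all genes and 19.9% of tested genes. The YY1 motif was found in 11 members (16.7%), against 2.76% and 5.91%. At least one of these motifs stood in 40 member promoters (60.6%), against 15.9% of all genes and 32.4% of tested genes. Of the other motifs searched, GGGCGG, bound by SP factors, was found in 51.5% of members, against 38.2% of all genes and 68.7% of tested genes. CCAAT was found in 37.9%, against 41.1% and 42.8%. TATAAA was found in 7.58%, against 15.7% and 8.68%, and CACGTG in 7.58%, against 8.09% and 11.7%. These are letter matches on both strands, the NRF1, ETS and YY1 matches do not overlap in the printed stretches, and a match does not show binding.

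A second shared feature was gene arrangement. The annotated start of 33 of 75 members (44.0%) lay within 1000 bases of, or overlapped, the start of a gene on the opposite strand, against 15.8% of all tested genes. The partner was itself a member for Mrpl46 and Mrps11, which overlap head to head by 412 bases on chromosome 7. Mrpl46, a protein of the central protuberance, had 11.8 and 16.1 CPM in libraries labelled knockout, against 15.8, 9.51 and 16.0 CPM in controls. Mrps11, a protein of the small-subunit platform, had 8.80 and 15.1 CPM, against 14.3, 6.34 and 13.8 CPM. Both genes were lowest in control 2 and both groups overlapped, but 12.2% of the exon bases of Mrpl46 overlap exons of Mrps11 on the other strand, and the labels do not say whether reads were counted by strand. Outside that pair 28 members had a partner that was tested, among them Mrps18b with Ppp1r10, Mrpl32 with Psma2 and Mrpl54 with Apba3.

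Levels among the members spanned a 37.8-fold range when CPM was divided by transcript length in kilobases and averaged over the 5 libraries. Mrpl52 stood highest at 73.1 ± 32.6 CPM per kilobase (SD, n = 5), followed by Mrpl33 at 42.1, Mrps21 at 41.0, Mrps15 and Mrpl4 both at 39.5, and Mrps18a at 37.8. At the low end stood Mrpl23 at 2.36, Mrpl47 at 2.09 and Mrps36 at 1.94 CPM per kilobase. The member median was 12.3, and 36 members lay within 2-fold of it. The same measure had a median of 8.47 over all tested genes, 43.8 over 73 nuclear genes for oxidative phosphorylation subunits and 61.7 over 74 cytosolic ribosomal protein genes. In the order of the 75 levels, 0 of the 74 gaps between neighbours exceeded the larger of the 2 genes' SDs, and 5 exceeded the smaller one, among them the gap between Mrpl52 and Mrpl33. With the length of all annotated exons in place of the transcript, 2 of the 6 highest and 2 of the 3 lowest genes kept their places.

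Several of the lowest genes have near-identical processed pseudogenes, and reads from identical stretches cannot be placed uniquely. Mrpl23, at the exit of the peptide tunnel, matches Mrpl23-ps1 over 540 bases at 100% identity. Mrps36, which was first named as a ribosomal protein and is now known as a subunit of the 2-oxoglutarate dehydrogenase complex, matches Mrps36-ps1 over 306 bases at 99.35%. Mrps33 matches Gm5776 over 321 bases at 99.69%, and Mrps18b matches Gm13552 over 417 bases at 99.76%. In all, 15 members have such a copy at 95% identity or more over at least 200 bases, and levels of these genes are uncertain to that extent. Exons of 32 members overlap exons of another gene, on the opposite strand for 27, and the overlap exceeds 20% of exon bases for 9, up to 77.8% for Mrps34 and 69.8% for Mrps25.

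No member passed the test between the groups. By edgeR's quasi-likelihood test with Benjamini-Hochberg adjustment over all 12543 genes, 0 of 75 members had an adjusted p under 0.05, and the same was true of all tested genes (0.0%). DESeq2 called 0 members against 1.68% of its genes, and limma-voom called 0 members against 0.0%. At an unadjusted p under 0.05, edgeR gave 1 member, against 6.68% of tested genes, with 0 higher and 1 lower, against 3.99% and 2.69%, and DESeq2 and limma-voom gave 0, against 6.65% and 6.05%. The smallest adjusted p of any member was 0.745 by edgeR, 0.665 by DESeq2 and 0.825 by limma-voom.

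Fitted log2 fold changes, libraries labelled knockout over control, ran over -0.68 for Mrpl54 and 0.56 for Mrps36, with 26 positive and 49 negative (65.3% negative, against 48.9% of all tested genes). Their median was -0.083, against 0.013 over all tested genes. In 65 members the fitted value lay within 0.5 of 0. Standard errors were 0.194 to 0.624 on the log2 scale with a median of 0.347, and the 95% interval lay inside a 2-fold change in both directions for 37 members. For the other members except Mrps18b the libraries could not distinguish a change of that size from none. The interval of Mrps18b, -1.226 to -0.001, held a 2-fold fall and ended just short of 0. The biological coefficient of variation had a median of 0.330 over members and 0.339 over all tested genes. The median moved to 0.068 without library 1 labelled knockout, to -0.462 without library 2 labelled knockout, to -0.219 without control 2 and to -0.01 without control 3.

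**Figure D1:**
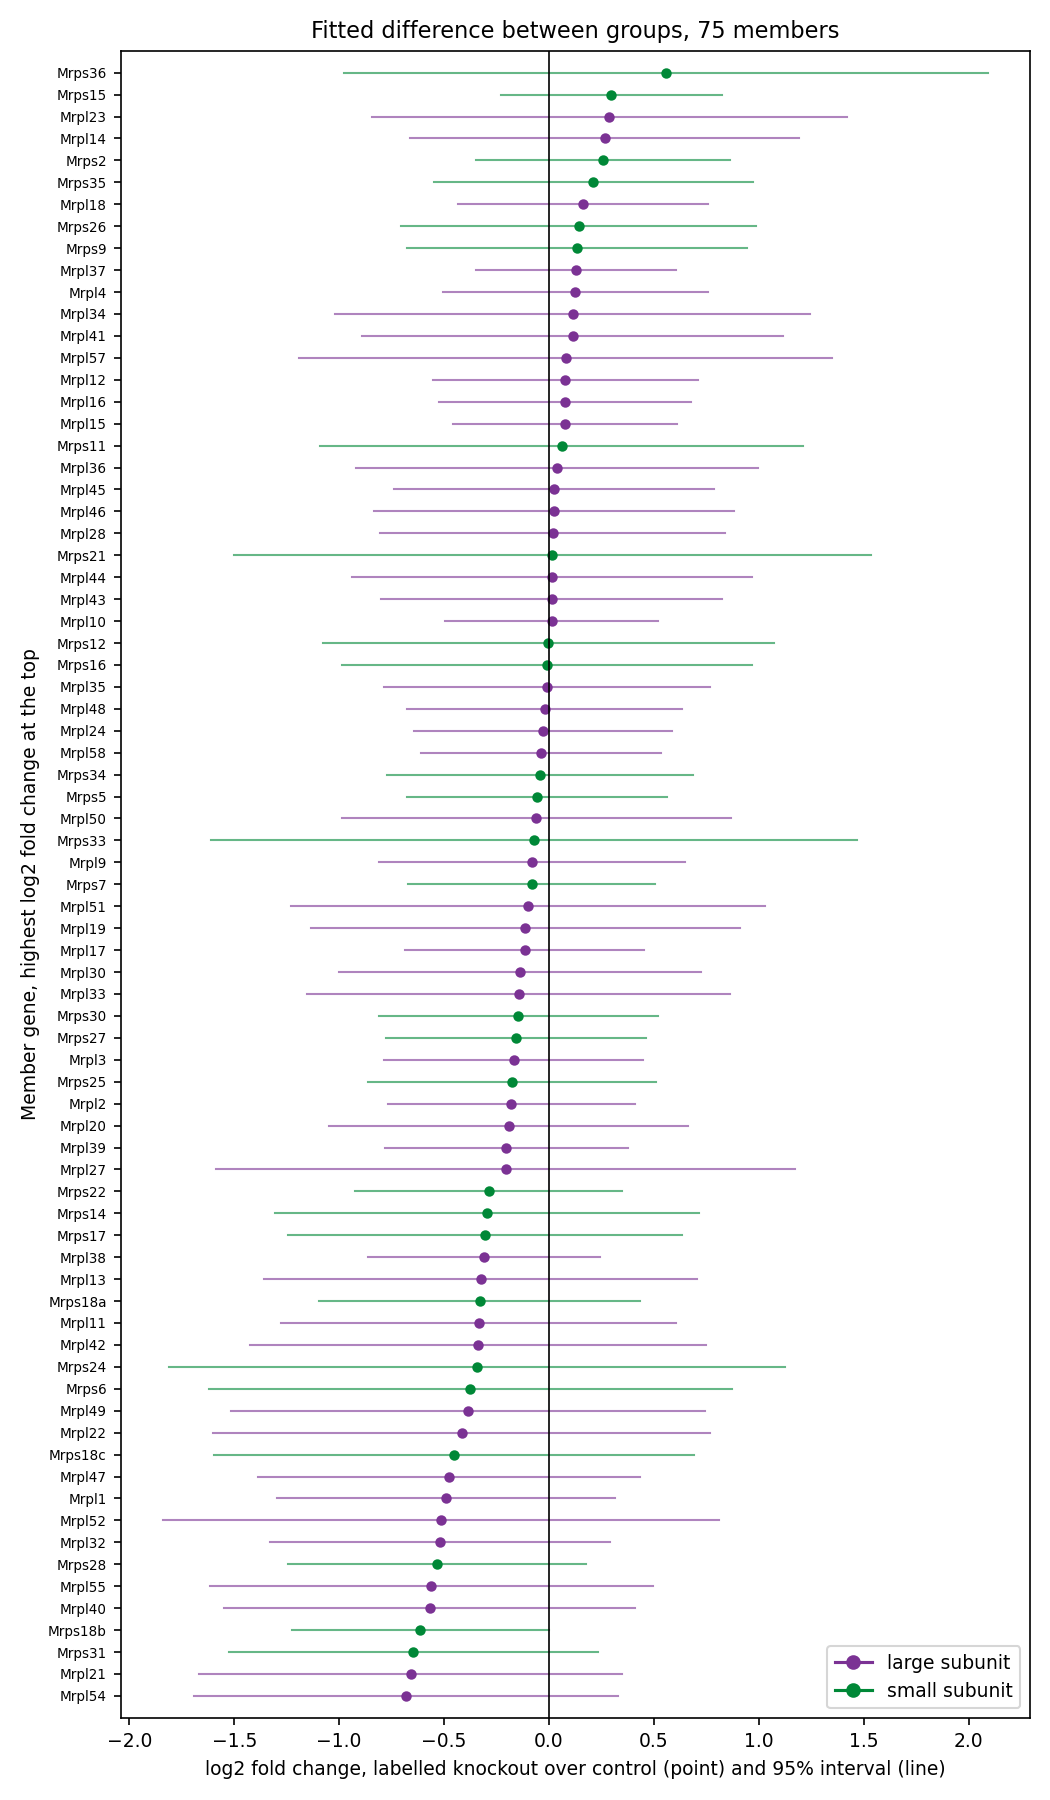
Fitted log2 fold change of each of the 75 members, libraries labelled knockout over control (points, x axis), with the 95% interval as a line and the members in order of fold change down the page. Every interval crosses 0 except that of Mrps18b, which ends at -0.001.

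The groups did not overlap for 8 members, 1 higher (Mrps15, against 9.85% of all tested genes) and 7 lower (Mrps18b, Mrps28, Mrps31, Mrpl32, Mrpl38, Mrps22 and Mrps30, against 10.4%). Both shares of the members, 1 and 7 of 75, were near or under the background. Mrps18b (chr17:35910379-35916389), a small-subunit protein that is one of a trio of mammalian paralogs of bacterial S18, had 13.8 and 15.3 CPM in libraries labelled knockout, against 22.2, 19.8 and 24.98 CPM in controls. Both libraries labelled knockout lay under all 3 controls. The log2 fold change was -0.61 ± 0.25 (SE), with an edgeR p of 0.0497 before adjustment and an adjusted p of 0.745. Of the exon bases of Mrps18b, 30.5% overlap Gm16279 on the opposite strand. Its paralog Mrps18a, which is built into the large subunit, had 21.4 and 36.5 CPM, against 36.3, 30.4 and 42.4 CPM, and Mrps18c had 5.89 and 14.2 CPM, against 12.3, 11.2 and 17.8 CPM. The groups overlapped for both paralogs, with adjusted p-values of 0.924 each by edgeR.

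Mrps28, a small-subunit protein related to bacterial S1, had 9.46 and 12.6 CPM in libraries labelled knockout, against 18.04, 14.3 and 15.6 CPM in controls (log2 fold change -0.54 ± 0.29 SE, edgeR adjusted p = 0.871). Mrps31, found only in mitochondria and placed in the head of the small subunit, had 4.996 and 8.65 CPM, against 10.9, 10.1 and 11.1 CPM (-0.65 ± 0.36, edgeR adjusted p = 0.874). In both genes every control lay above both libraries labelled knockout, and library 1 of those was the lowest. Mrpl32, which is processed by the m-AAA protease before assembly, had 6.96 and 7.62 CPM, against 10.6, 8.30 and 12.49 CPM. Mrpl38, of the central protuberance, had 25.9 and 26.6 CPM, against 37.6, 30.7 and 29.3 CPM. Mrps22 averaged 11.95 ± 0.071 CPM (SD, n = 2) in libraries labelled knockout and 14.6 ± 1.10 CPM (SD, n = 3) in controls. Mrps30 had 10.9 and 11.1 CPM, against 11.4, 13.3 and 11.9 CPM. In these 4 genes the libraries labelled knockout lay close together and just under the nearest control. Mrps15, an early-binding protein of the small-subunit body, was the member whose libraries labelled knockout both lay above the controls, at 36.6 and 46.8 CPM, against 34.4, 31.7 and 35.6 CPM (0.30 ± 0.21, edgeR adjusted p = 0.909).

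Fitted values of like size also came from members whose groups overlapped. Mrpl54, near the base of the stalk that recruits translation factors, had 9.52 and 20.5 CPM in libraries labelled knockout, against 28.2, 18.1 and 25.9 CPM in controls (-0.68 ± 0.41 SE, edgeR adjusted p = 0.876). Mrpl21 had 6.19 and 11.4 CPM, against 15.5, 9.95 and 16.4 CPM, and Mrpl40, of the central protuberance, 7.79 and 14.1 CPM, against 17.9, 11.5 and 19.3 CPM. Mrpl1, of the mobile stalk at the tRNA exit side, had 10.7 and 15.9 CPM, against 15.8, 16.8 and 23.5 CPM. In all of these genes library 1 labelled knockout was lowest, and library 2 lay among the controls. On the other side, Mrps36 had 1.07 and 2.27 CPM, against 1.32, 0.634 and 1.49 CPM, from 10 to 42 reads per library, and Mrpl14, which binds the assembly factor Malsu1, had 13.03 and 23.0 CPM, against 16.6, 10.7 and 17.8 CPM. Without library 2 labelled knockout the fitted values of Mrps36 and Mrpl14 turned negative, to -0.087 and -0.20.

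**Figure D2:**
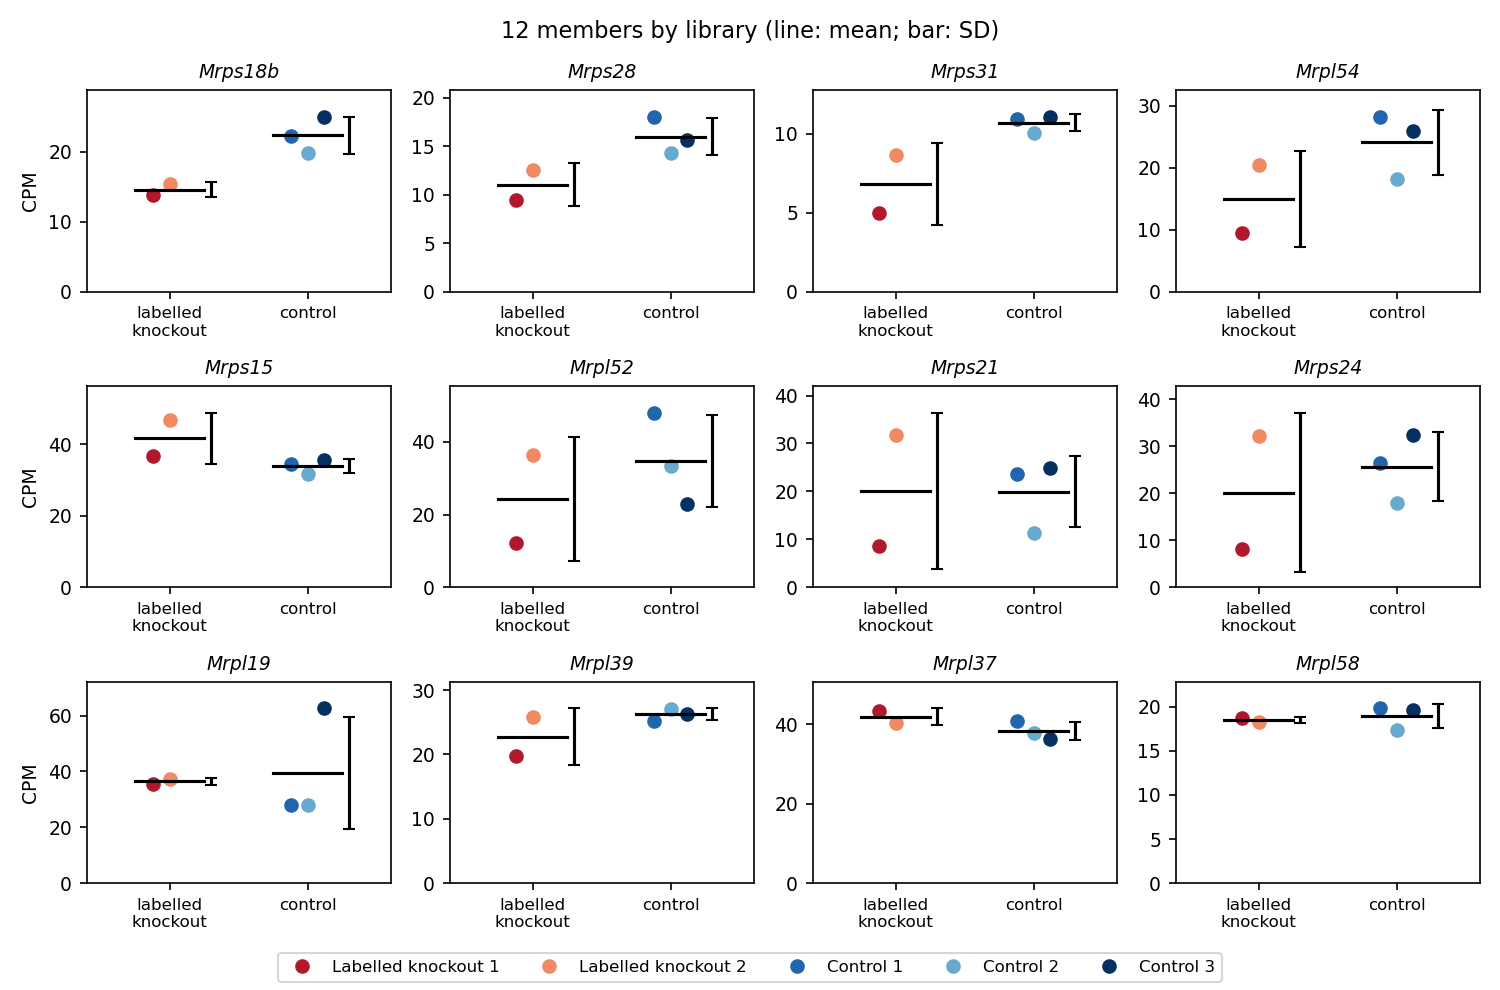
CPM of 12 members in each library (points), with the group mean as a horizontal line and the SD as a bar beside it, libraries labelled knockout on the left and controls on the right of each panel. Mrps18b, Mrps28, Mrps31 and Mrps15 show groups that do not overlap, while Mrpl52, Mrps21 and Mrps24 show a gap between the libraries labelled knockout that exceeds the difference between the group means.

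Grouped by symbol, the 48 Mrpl genes had a median log2 fold change of -0.090 with 30 negative, and the 27 Mrps genes -0.083 with 19 negative. The symbol is not the place in every case: Mrps18a and Mrps30 are built into the large subunit of mammals, and Mrps36 belongs to the 2-oxoglutarate dehydrogenase complex. With those genes sorted by place, a choice made after seeing the data, the medians were -0.106 over 50 large-subunit genes and -0.078 over 24 small-subunit genes. By symbol, members with bacterial counterparts had medians of -0.114 (30 Mrpl genes) and -0.083 (17 Mrps genes), and the other members -0.049 (18 Mrpl genes) and -0.109 (10 Mrps genes). Differences between subunits, classes and places were not tested. The catalytic core of the large subunit, where peptide bonds form, had a median of -0.046 over 4 genes. In it Mrpl2 had 27.8 and 37.0 CPM in libraries labelled knockout, against 41.6, 32.9 and 35.8 CPM in controls, and Mrpl3 had 38.1 and 41.5 CPM, against 44.6, 35.2 and 54.5 CPM. The peptide exit tunnel had a median of -0.073 over 6 genes, among them Mrpl22 with 3.57 and 6.86 CPM, against 7.42, 4.56 and 8.99 CPM. Mrpl47, also at the tunnel, had 5.06 and 6.32 CPM, against 7.92, 6.08 and 9.81 CPM. Both groups overlapped in all 4 genes.

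The central protuberance, which contacts the tRNAs, had the lowest median of the places, -0.258 over 8 genes. By edgeR 0 of these genes were called, against 0.0% of all tested genes, so the count does not set this place apart. The stalk had a median of -0.161 over its 4 tested genes, and Mrpl11 at its base had 10.5 and 18.3 CPM in libraries labelled knockout, against 20.1, 12.7 and 21.8 CPM in controls. In the small subunit the medians were -0.059 for 3 genes of the decoding site and mRNA path, -0.078 for 6 tested genes of the head and -0.045 for 9 genes of the platform and body. Mrps5, which affects decoding accuracy, had 22.0 and 18.3 CPM, against 22.4, 22.8 and 17.8 CPM, and Mrps14 of the head had 12.7 and 24.6 CPM, against 23.9, 15.7 and 29.4 CPM. The summed CPM of large-subunit over small-subunit genes, sorted by place, was 2.70 and 2.54 in libraries labelled knockout, against 2.64, 2.61 and 2.66 in controls. Sorted by symbol the ratio was 2.37 and 2.24, against 2.31, 2.23 and 2.30.

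Summed over the 75 members, CPM was 1254 and 1860 in libraries labelled knockout, against 1780, 1364 and 1875 in controls, which was 0.134% and 0.176% of all counts, against 0.182%, 0.137% and 0.181%. Library 1 labelled knockout and control 2 were thus low, and the other 3 libraries lay close together. The group means, 1557 ± 429 (SD, n = 2) and 1673 ± 272 (SD, n = 3), differed by less than either SD. The genes took part together: 47 members (62.7%) were lowest in library 1 labelled knockout and 23 (30.7%) in control 2. Over all tested genes these shares were 33.1% and 12.4%. In 50 members (66.7%) the level was lower in both of these libraries than in each of the other 3, against 22.5% of all tested genes. The promoter of Mrpl52, which had 12.3 CPM in library 1 labelled knockout and 36.3 in library 2, holds ETS matches. That of Mrpl58, which had 18.7 and 18.2, holds ETS matches and a YY1 match. Mrpl52 did not follow the pattern in controls, with 33.3 CPM in control 2 and 22.8 in control 3. Whether promoter motifs bear on the library pattern was not tested.

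**Figure D3:**
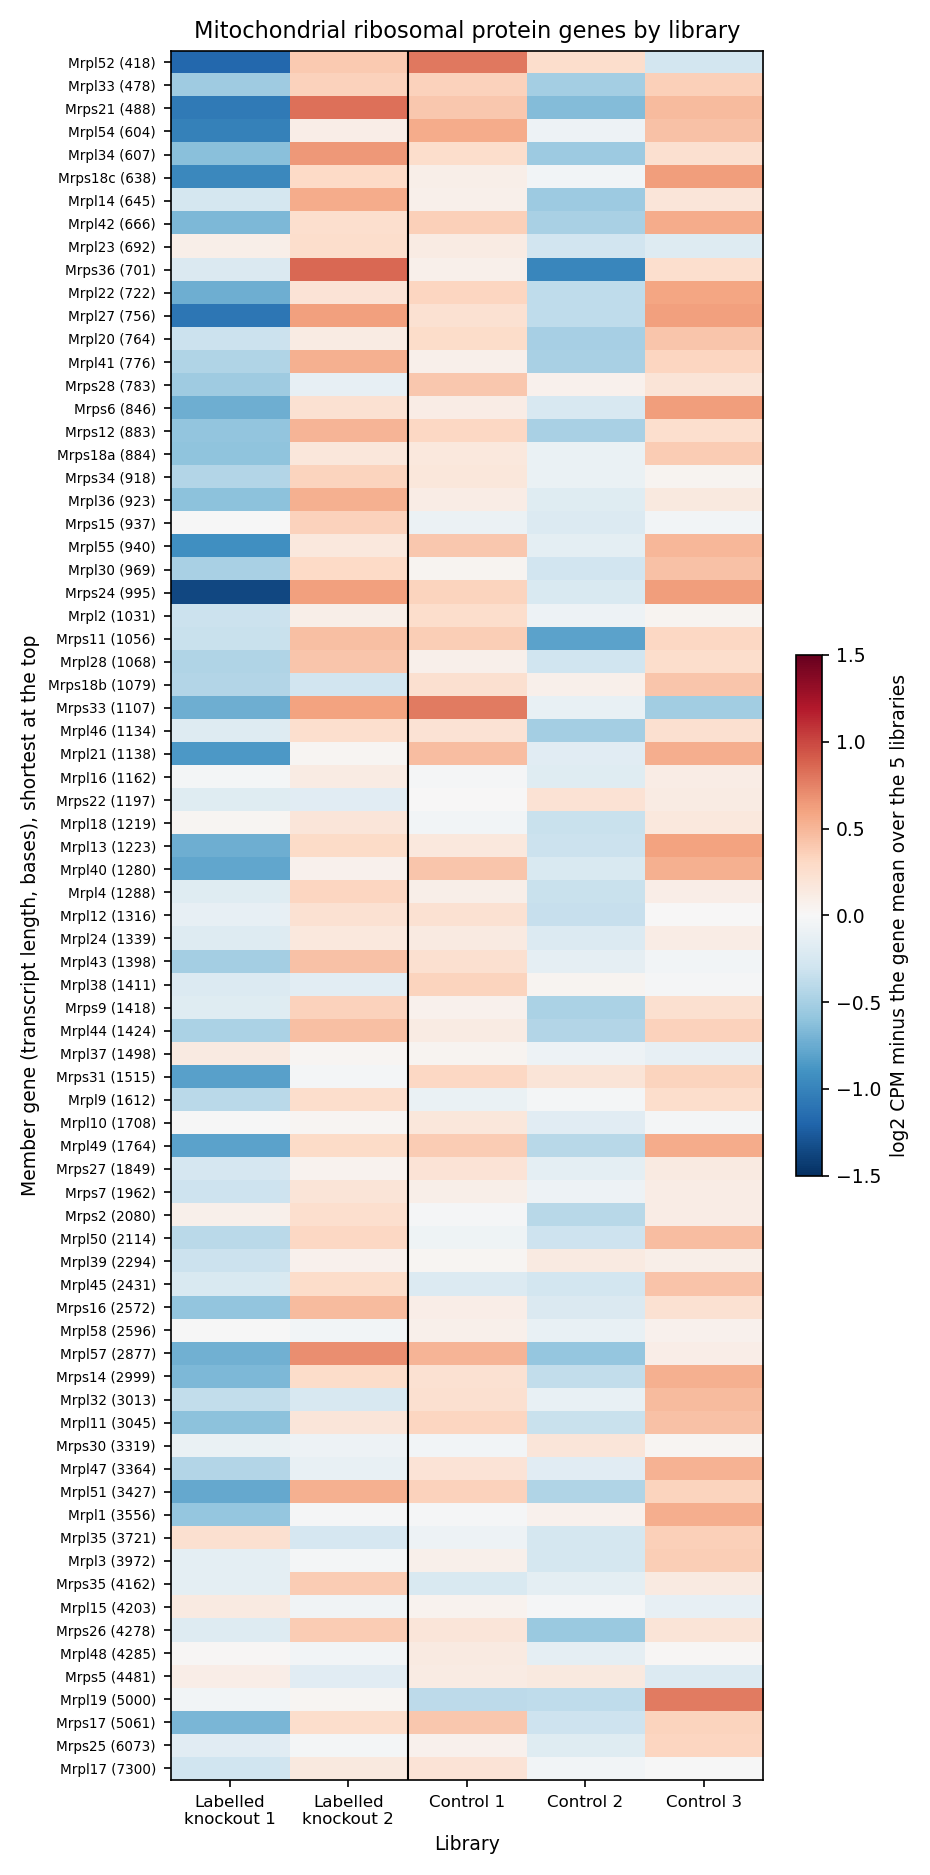
Level of each of the 75 members in each library as log2 CPM minus the mean of the gene over the 5 libraries (colour), with the shortest transcripts at the top and their length in bases beside the symbol, libraries labelled knockout left of the line. The columns of library 1 labelled knockout and control 2 are mostly blue, and the contrast is strongest near the top.

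The gap inside the labelled knockout group was the widest. Mrps24, which lines the mRNA entry path, had 8.15 CPM in library 1 labelled knockout and 32.2 in library 2, against 26.5, 17.9 and 32.5 CPM in controls. Mrps21 had 8.57 and 31.7 CPM, against 23.6, 11.4 and 24.8 CPM, and Mrpl52 had 12.3 and 36.3 CPM, against 48.0, 33.3 and 22.8 CPM. In these genes the libraries labelled knockout enclosed most or all of the controls, and each fitted value changed sign with a library left out, to 0.302 for Mrps24 and 0.035 for Mrpl52 without library 1 labelled knockout and to -1.217 for Mrps21 without library 2. Mrpl33, a short protein of the large subunit, had 13.3 and 24.5 CPM, against 24.6, 13.6 and 24.7 CPM, low in library 1 labelled knockout and in control 2. Over all members, library 2 labelled knockout was above library 1 in 69 of 75, with a median log2 ratio of 0.664, against 51.3% of all tested genes and a median of 0.028. Control 1 was above control 2 in 67 of 75 members, with a median of 0.354, and control 3 above control 2 in 66, with a median of 0.569. Over the 12543 tested genes these counts were 6349 and 6417, with medians of 0.006 and 0.018.

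Other members hardly moved. Chosen after their values were seen, the 5 members whose log2 CPM ranged by under 0.3 over the libraries were Mrpl58, Mrpl37, Mrpl15, Mrpl48 and Mrps30. Mrpl58, a peptidyl-tRNA hydrolase built into the large subunit that frees stalled ribosomes, had 18.7 and 18.2 CPM in libraries labelled knockout, against 19.8, 17.4 and 19.6 CPM in controls, and Mrpl37 had 43.4 and 40.4 CPM, against 40.9, 37.8 and 36.3 CPM. The groups overlapped in both genes. Mrpl39, which had the least spread among the controls, had 19.7 and 25.9 CPM in libraries labelled knockout and 25.3, 27.1 and 26.3 CPM in controls, with library 1 labelled knockout again the lowest. Mrpl19 had the most spread among controls and did not follow the pattern of the others, with 35.6 and 37.4 CPM in libraries labelled knockout and 27.9, 28.0 and 62.6 CPM in controls. Control 3 alone was high for Mrpl19, whose fitted value was -0.11 with it and 0.387 without it, and 36.0% of its exon bases overlap Gcfc2 on the opposite strand.

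The gap between libraries of a group was compared with transcript length. Members had a median transcript length of 1316 bases, against 3089 bases over all tested genes, and a median GC content of 49.9%, against 50.3%. In the 25 shortest members (418 to 1031 bases), the median log2 ratio of library 2 over library 1 labelled knockout was 0.923, in the 25 of middle length (1056 to 1962 bases) it was 0.503, and in the 25 longest (2080 to 7300 bases) 0.393. For control 1 over control 2 the medians of the same sets were 0.562, 0.368 and 0.251, and for control 3 over control 2 they were 0.731, 0.335 and 0.582, with the longest members above those of middle length. Across the 75 members Pearson's r between log2 length and the log2 ratio was -0.49 within the labelled knockout group, -0.38 for control 1 over control 2 and -0.155 for control 3 over control 2, against -0.46, -0.46 and -0.311 across 12510 tested genes. These correlations run over genes that share the same libraries and are a description. For the fitted difference between the groups r was 0.05 across the members, against 0.173 across 12510 tested genes. The medians of the short, middle and long members were -0.18, -0.029 and -0.099. RNA integrity values were not used here, and the part that RNA quality or library preparation had in the pattern was not tested.

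**Figure D4:**
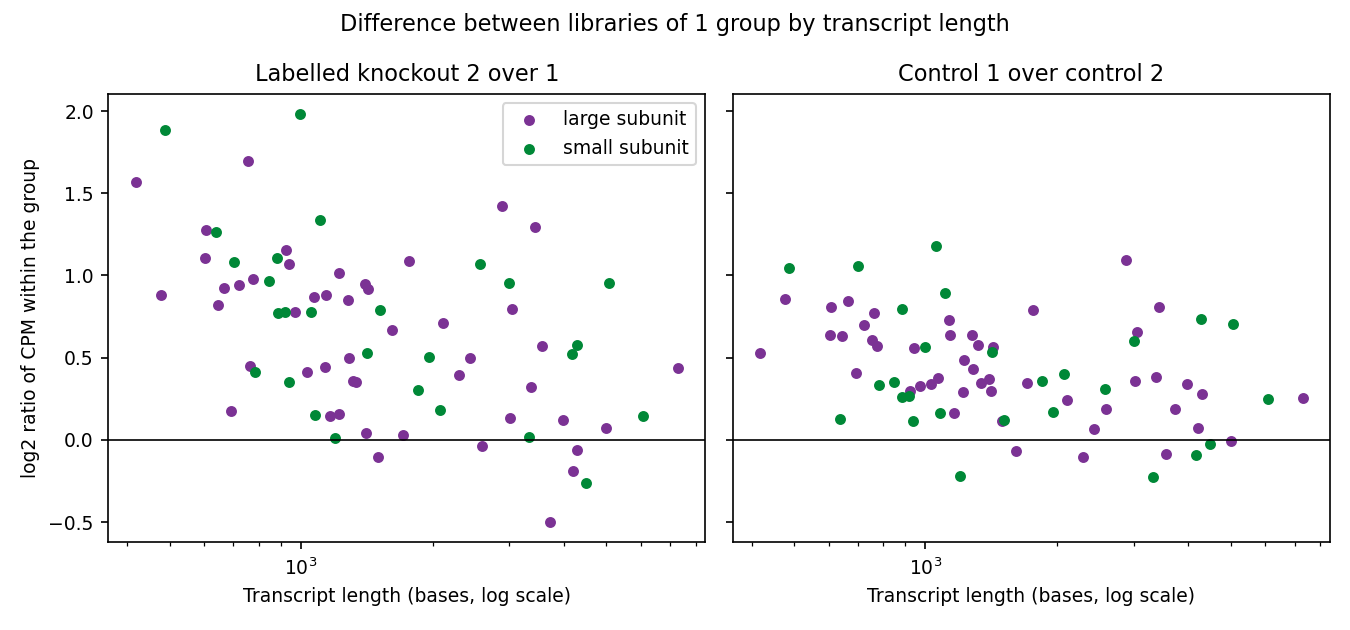
Log2 ratio of CPM between libraries of the same group (y axis) against transcript length in bases (x axis, log scale) for the 75 members, library 2 over library 1 labelled knockout on the left and control 1 over control 2 on the right, coloured by symbol (Mrpl, large subunit; Mrps, small subunit). Ratios are mostly above 0, and within the labelled knockout group they are higher among short transcripts.

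The library gap was also set beside the promoter motifs, without a test. The 24 members with an ETS match had a median log2 ratio of library 2 over library 1 labelled knockout of 0.897, and the 42 members with a promoter but no match 0.543. With and without an NRF1 match the medians were 0.576 (13 genes) and 0.769 (53 genes), and with and without a YY1 match 0.768 (11 genes) and 0.706 (55 genes). The fitted difference between groups had a median of 0.016 with and -0.144 without an NRF1 match, -0.108 and -0.071 for ETS, and -0.147 and -0.081 for YY1. Head-to-head partners did not follow the members closely: 22 of the 28 members with a tested partner (78.6%) were lower in both library 1 labelled knockout and control 2 than in the other libraries, while 9 of the 28 partners (32.1%) were. Those members had a median transcript length of 1252 bases, against 2938 bases in the partners, and the difference in behaviour was not tested. Psma2, the proteasome subunit gene next to Mrpl32, had 36.3 and 55.6 CPM in libraries labelled knockout, against 65.7, 54.6 and 96.4 CPM in controls. Apba3, next to Mrpl54, had 30.3 and 46.0 CPM, against 43.2, 40.4 and 32.8 CPM, and these groups overlapped.

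Other genes of mitochondrial translation were counted in the same fit. Of them 0 were called by edgeR, DESeq2 or limma-voom, against 0.0%, 1.68% and 0.0% of all genes tested by each. At an unadjusted p under 0.05, edgeR and DESeq2 gave 1 gene, Lars2, against 6.68% and 6.65% of all genes. By limma-voom 0 of them had an unadjusted p under 0.05, against 6.05%. Among 5 mitoribosome subunits with other symbols 2 log2 fold changes were positive and 3 negative, with a median of -0.035. Chchd1 had 9.28 and 21.8 CPM in libraries labelled knockout, against 24.4, 16.2 and 30.7 CPM in controls, and Dap3, a GTP-binding protein of the small subunit, had 37.95 and 33.0 CPM, against 30.9, 33.5 and 34.7 CPM. Genes for mitoribosome assembly and rRNA modification had 5 positive and 22 negative values of 27, with a median of -0.170, which was -0.056 without library 1 labelled knockout, -0.413 without library 2 and -0.108 without control 3. The list had 9 genes whose groups did not overlap on the lower side (against 10.4% of all tested genes) and 1 on the higher side (against 9.85%). Among them Malsu1, an anti-association factor of the large subunit, had 4.88 and 8.76 CPM, against 10.1, 10.6 and 14.1 CPM (-0.76 ± 0.39 SE, edgeR adjusted p = 0.852). Rcc1l, which takes part in maturation of the 16S rRNA, had 15.7 and 22.4 CPM, against 27.9, 30.5 and 26.2 CPM (-0.57 ± 0.26, edgeR adjusted p = 0.812). Both libraries labelled knockout lay under every control for Malsu1 and Rcc1l, and neither gene passed the test. Of the markers given above, groups did not overlap for 6 of 8 genes of choroid plexus and ependyma, 5 of 10 of microglia and 4 of 6 of mural cells and fibroblasts. The counts were 3 of 7 for cycling cells, 3 of 8 for monocytes, 2 of 5 for endothelium and 1 of 5 for astrocytes. For oligodendrocytes and neurons they were 0 of 6 and 0 of 5. Over all tested genes the shares were 9.85% on the higher side and 10.4% on the lower side. The part of cell composition in these values was not tested.

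The 14 tested translation factors had 5 positive and 9 negative values. The median of mitochondrial translation factors was -0.086, and it was 0.073 without library 1 labelled knockout, -0.289 without library 2 and -0.032 without control 3. Tufm, the mitochondrial elongation factor Tu, had 28.2 and 30.6 CPM in libraries labelled knockout, against 23.6, 25.2 and 18.9 CPM in controls, and Mtif3, an initiation factor, had 3.87 and 6.48 CPM, against 7.29, 7.86 and 6.76 CPM. The groups did not overlap for Tufm and Mtif3, and their edgeR adjusted p-values were 0.877 and 0.918. In the whole list this held for 2 of the 14 genes on the higher side (against 9.85% of all tested genes). On the lower side it held for 1 of the 14 (against 10.4%). Guf1, whose groups overlapped, had 20.16 and 22.75 CPM, against 21.94, 27.69 and 36.57 CPM (edgeR adjusted p = 0.8985). The 20 mitochondrial aminoacyl-tRNA synthetase genes had 10 positive and 10 negative values with a median of -0.031, which ran over -0.086 to 0.095 with 1 library left out. Groups did not overlap for 5 of the 20 genes on the higher side (against 9.85% of all tested genes). On the lower side this held for 4 of the 20 (against 10.4%). Lars2, the leucyl-tRNA synthetase, had 825.7 and 387.3 CPM, against 280.4, 377.6 and 166.4 CPM, the highest fitted value among the lists of mitochondrial translation at 1.14 ± 0.46 with an edgeR adjusted p of 0.745. Without library 1 labelled knockout, where its level was highest, the value was 0.465. It was the 1 gene of the list at an unadjusted p under 0.05, at 0.0492. The 15 genes of mitochondrial transcription and mRNA maintenance had 7 positive and 8 negative values with a median of -0.095, which was -0.458 without library 2 labelled knockout. Tfam, the packaging and transcription factor of mitochondrial DNA, had 13.4 and 20.5 CPM, against 21.6, 20.3 and 26.8 CPM, and the groups overlapped. They also overlapped for Pnpt1 (-0.74 ± 0.47 SE, edgeR adjusted p = 0.880) and Slirp (-0.76 ± 0.56, edgeR adjusted p = 0.909).

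Taken as a list, the mRNAs that this ribosome translates ran the other way from library to library. Of the 13 mitochondrially encoded mRNAs 12 were tested, since mt-Atp8 is listed at 0. Their summed level was 20602 and 16909 CPM in libraries labelled knockout, against 14307, 19476 and 11981 CPM in controls. A list score, the mean over the genes of log2 CPM minus the mean of each gene over the libraries, was 0.32 and -0.075 for these mRNAs, against -0.36, 0.53 and -0.41. For the 75 members the same score was -0.42 and 0.22, against 0.18, -0.24 and 0.25. Library 1 labelled knockout and control 2, lowest for the mitochondrial ribosomal protein genes, were thus the highest by score and by sum for the mRNAs from mitochondrial DNA. Single mRNAs differed: library 2 labelled knockout was above library 1 in 4 of the 12. Controls 1 and 3 were each above control 2 in 0 of the 12. In the comparison of groups 9 of these mRNAs had positive and 3 negative values with a median of 0.182, which was -0.152 without library 1 labelled knockout, 0.41 without library 2, 0.433 without control 2, 0.101 without control 1 and -0.073 without control 3. Among them mt-Co1, the first subunit of cytochrome c oxidase, had 9517 and 10736 CPM, against 7445, 9003 and 7631 CPM. The groups of mt-Co1 did not overlap, and its edgeR adjusted p was 0.924.

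Cytosolic ribosomal protein genes and nuclear genes for oxidative phosphorylation subunits had the library pattern of the members with larger swings. The score of the 74 cytosolic ribosomal protein genes was -0.81 and 0.46 in libraries labelled knockout, against 0.28, -0.30 and 0.37 in controls. The score of the 73 oxidative phosphorylation genes was -0.66 and 0.45, against 0.27, -0.36 and 0.31. Library 2 was above library 1 labelled knockout by a median log2 ratio of 1.24 in the cytosolic ribosomal protein genes and 1.02 in oxidative phosphorylation genes, against 0.664 in the members. Those lists have shorter transcripts, with medians of 896 and 838 bases. In the comparison of groups their medians were -0.112 and -0.018, with 21 positive and 53 negative, and 33 positive and 40 negative values, and they were 0.332 and 0.306 without library 1 labelled knockout and -0.858 and -0.639 without library 2. The difference in swing between these lists and the members was not tested.

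**Figure D5:**
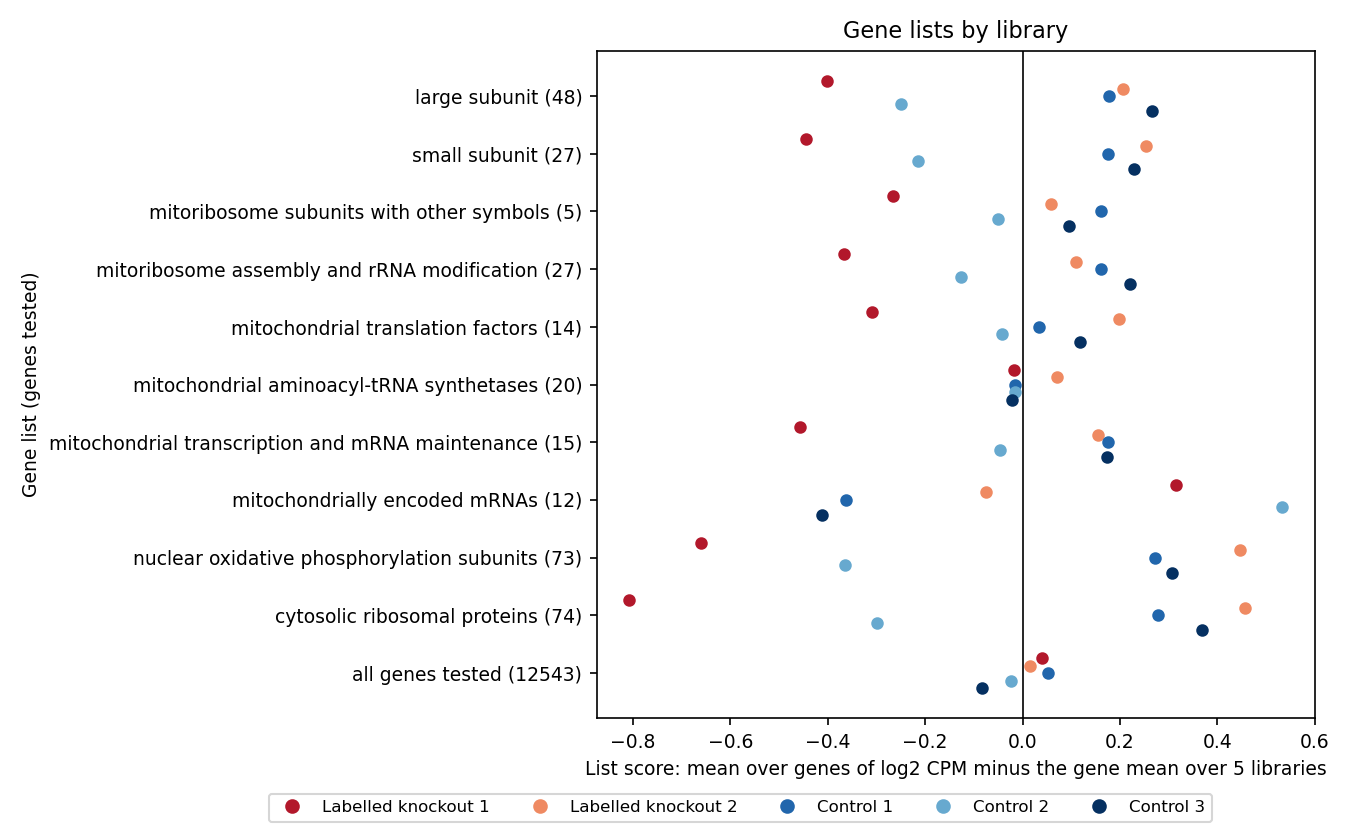
List score in each library (points, x axis, mean over the genes of log2 CPM minus the gene mean over 5 libraries) for the members by symbol (Mrpl, large subunit; Mrps, small subunit), the other lists of mitochondrial translation, 2 comparison lists and all tested genes. Library 1 labelled knockout and control 2 lie left of 0 and the other 3 libraries right of it for both symbols, and the mitochondrially encoded mRNAs have library 1 labelled knockout and control 2 on the right.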

How the data were processed

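Each gene symbol of the deposited table carries a whole-number read count per library, and the authors did not normalize these counts as far as the values show. The labels' protocols name Trizol for RNA extraction and NEBNext Ultra for library preparation. The submitters' processing notes name FastQC, STAR, HTSeq and mm10, with tool versions, annotation and strand setting not given in the sources used here. Groups came from the sample titles. The title of the third control carries conflicting numbers, and the library number 3 was used.

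The members, the gene lists and the tests were chosen with earlier results of these data known. Counts were tested with edgeR 4.0.16 (filterByExpr, TMM scaling, robust quasi-likelihood fit, 3 residual degrees of freedom, common biological coefficient of variation 0.408) in R 4.3.3, with Benjamini-Hochberg adjustment over 12543 genes and a threshold of 0.05, and the fit was tested on simulated data. DESeq2 1.42.0 and limma-voom (limma 3.58.1) were alternatives. CPM used TMM-scaled library sizes, and log2 CPM for scores a prior count of 2. Symbols were matched to GENCODE release M21 on GRCm38 for coordinates, transcript lengths and overlaps (21926 of 21983, 99.74%), pseudogene copies were found with blastn between transcripts, and promoters came from RefSeq. The list of cytosolic ribosomal proteins leaves out Rps6 kinases and other genes that only share the prefix. Genes were named by rule: the 6 highest and 3 lowest per length, the 8 smallest p, the 4 largest log2 fold changes each way, the 2 smallest p in each place, the Mrps18 paralogs, the least and most variable in controls, and in other lists up to 3 with the smallest p and the 1 with the highest mean. Mrpl15, Mrpl37, Mrpl45, Mrpl46, Mrpl48, Mrpl58, Mrps11, Mrps25, Mrps30, Mrps33 and Mrps34 were named for range, exon overlap, gene arrangement, overlap between groups or a pseudogene copy, and partners for the member beside them. Values of some genes that the rule picked in other lists are not printed, among them Mrm1, Dhx30, Gatc and Ears2. Protein sequences were not used here.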

Additional observations from a re-analysis of the deposited data

How the results depend on the processing

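Members called at an adjusted p under 0.05 numbered 0 under every alternative run, and the lowest adjusted p of any member was 0.256, without library 2 labelled knockout. Members at an unadjusted p under 0.05 numbered 0 with DESeq2 size factors, no filter, DESeq2, limma-voom, the legacy method, no robust estimation and the replicate block, and 0 to 8 with 1 library left out. Over the whole table DESeq2 called 232 genes and the replicate block 4, against 0. Leaving out 1 library moved the median log2 fold change of the members over -0.462 to 0.068, of Mrpl genes over -0.46 to 0.051, of Mrps genes over -0.485 to 0.118, of subunits with other symbols over -0.454 to -0.029, of assembly genes over -0.413 to -0.056, of translation factors over -0.289 to 0.073, of mitochondrially encoded mRNAs over -0.152 to 0.433, of synthetases over -0.086 to 0.095, of transcription genes over -0.458 to -0.053, of cytosolic ribosomal proteins over -0.858 to 0.332 and of oxidative phosphorylation genes over -0.639 to 0.306. With the replicate block the synthetase median was 0.058. Deviations of same-numbered libraries from their group means correlated at 0.148 for number 1 and -0.562 for number 2. With 2 libraries labelled knockout, their deviations mirror each other. The -0.562 thus restates a correlation of 0.562 between library 1 labelled knockout and control 2. These values cannot show whether the numbers mark pairs. The numbers were not taken as pairs, and control 3 has no partner.

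Signs of some named genes reversed. With limma-voom these were Mrpl19 (0.015), Mrps21 (-0.151) and Aurkaip1 (-0.031), with library totals Mrps21 (-0.016), with the replicate block Mrpl19 (0.385), Mrpl3 (0.006), Aurkaip1 (-0.091) and Lrpprc (-0.027), and with a correction for transcript length Mrpl33 (0.06), Dap3 (-0.047) and Lrpprc (-0.054). With 1 library left out the ranges were -0.204 to 0.589 for Mrpl14, -0.309 to 0.387 for Mrpl19, -0.651 to 0.201 for Mrpl33, -0.145 to 0.324 for Mrpl4, -1.502 to 0.035 for Mrpl52, -0.851 to 0.074 for Mrps14, -1.223 to 0.014 for Mrps18c, -1.217 to 0.641 for Mrps21, -1.652 to 0.302 for Mrps24, -0.087 to 0.965 for Mrps36, -0.226 to 0.067 for Mrps5, -0.029 to 0.2 for Dap3, -0.454 to 0.083 for Gadd45gip1, -0.486 to 0.359 for Aurkaip1, -0.28 to 0.7 for Oxa1l, -0.316 to 0.351 for Lrpprc, -0.175 to 0.984 for mt-Nd5 and -0.646 to 1.42 for mt-Nd3. Of 915 recomputed values of 54 named genes 879 kept sign and side of the threshold, and the cause of the other changes was not tested. With 2 against 3 libraries, the 95% interval of 37 of 75 members lay inside a 2-fold change, which is the precision this depth and number of libraries gave.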
